A study of Drosophila ananassae with 54 samples.

Results

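The 50 genes described here were those whose RNA was lower in the Kathmandu line of Drosophila ananassae than in both Bangkok lines, in the hindgut, the Malpighian tubules and the body alike, at control temperature. They were chosen from a table of 14365 genes. Levels were counts scaled to a common library total (CPM, 1000000 times the count over the library's summed gene counts), and the 3 control libraries of each line and tissue were averaged and put on the scale of log2(mean CPM + 0.5). The 5747 genes with a mean of at least 5 CPM in both Bangkok lines in every tissue could enter. For each of them the KATH value was subtracted from the lower of the 2 Bangkok values, and the smallest of the 3 tissue differences ranked the genes. The line with the lower value is called the nearer Bangkok line below. It keeps that name where KATH lay above it, although KATH could then be closer to the other line. The first 50 were taken, so the line differences in the control libraries are a description and carry no test.

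The 3 lines were each a pool of isofemale lines, which are stocks founded by single wild females: 4 lines from Bangkok with the tolerant phenotype (FastBKK), 4 from Bangkok with the sensitive phenotype (SlowBKK) and 3 from Kathmandu with the tolerant phenotype (KATH). KATH therefore shared its population with no other group, and a difference of KATH from both Bangkok lines cannot be told apart from a property of this 1 pool. Adult males were kept from the day after eclosion for 4 days either at 22 °C, as controls, or at 10 °C for 96 h followed by 90 min of recovery, here called cold. Each hindgut or tubule sample pooled 60 individuals and was extracted with an RNeasy kit, whereas each body sample pooled 10 individuals and was extracted with a MasterPure kit. All RNA was poly-A selected. The 54 libraries formed 18 groups of 3, and the labels do not say whether the 3 came from separate cultures, so p-values measure only the spread between these samples.

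In insects the Malpighian tubules secrete primary urine and the hindgut recovers ions and water from it. Cold disturbs the balance of ions and water between gut and haemolymph, and acclimation to mild cold is known to change the function of both organs. Isofemale lines keep part of the genetic variation of their founders, so pools of such lines from different places can differ in transcript levels without any treatment.

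Libraries held 30.7 to 48.8 M counts, with a median of 34.3 M. No identifier of the count table matched the reference gene table, so the genes are given by symbol, FlyBase identifier, scaffold and length, no function is stated, and the tissue labels could not be checked against named marker genes. Among 795 genes with at least 50 CPM in the body and a median of at most 1 CPM in the other tissues, the FastBKK control hindgut replicate 3 stood at 5.31% of the body level, while every other hindgut library was at or under 0.399%. Without that library the rule kept 49 of the 50 genes and lost GF22350, the last in rank. Of the tubule libraries, FastBKK cold tubule replicate 3 was the highest by this measure, at 0.675% of the body level. Without it the tubule counts given below were 26 against FastBKK, 31 against SlowBKK and 22 against both, and the count in all 3 tissues was 17. In KATH cold tubule replicate 4 the 283 genes restricted to the hindgut stood at 1.4% of their hindgut level. Without that library the tubule counts given below were 31 against FastBKK, 31 against SlowBKK and 25 against both, and the count in all 3 tissues was 17.

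The ranking value ran from 2.74 for GF19347 to 0.33 for GF22350, with a median of 0.55 over the 50 genes and of -0.19 over the 5747 genes that could enter. Only 11 genes had a value over 1, and after the 11th, GF19350 at 1.13, the 12th, GF22695, was at 0.97. There was no gap at the other end: GF24152 and GF22350 at ranks 49 and 50 had 0.34 and 0.33, and GF20930 and GF14412, just outside, had 0.33 and 0.33. In all, 568 genes had a value above 0. In the control libraries the nearer Bangkok line exceeded KATH by medians of 0.79 (hindgut), 0.87 (tubule) and 0.89 (body) on the log2 scale. In bulk samples, fewer cells of a type and less RNA per cell cannot be told apart. Fewer transcripts in KATH and KATH reads that do not align to the reference sequence cannot be told apart in a count table either.

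The cold libraries were not used to choose the genes and show how far the same line difference was present in other flies. The nearer Bangkok line then exceeded KATH by a median log2 value of 0.66 in the hindgut, of 0.75 in the tubule and of 0.47 in the body, beside -0.04, -0.09 and 0.00 over the genes that could enter. KATH was below both Bangkok means for 43 hindgut, 48 tubule and 45 body values of the 50, that is for 86%, 96% and 90%. The same held for 40.7%, 33.8% and 50.2% of the genes that could enter. For 40 of the 50 it held in all 3 tissues, against 15.1% of the genes that could enter. The first 11 genes carried most of the size: their cold medians were 2.44, 3.20 and 2.18, whereas those of ranks 12 to 50 were 0.47, 0.64 and 0.40.

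**Figure D1:**
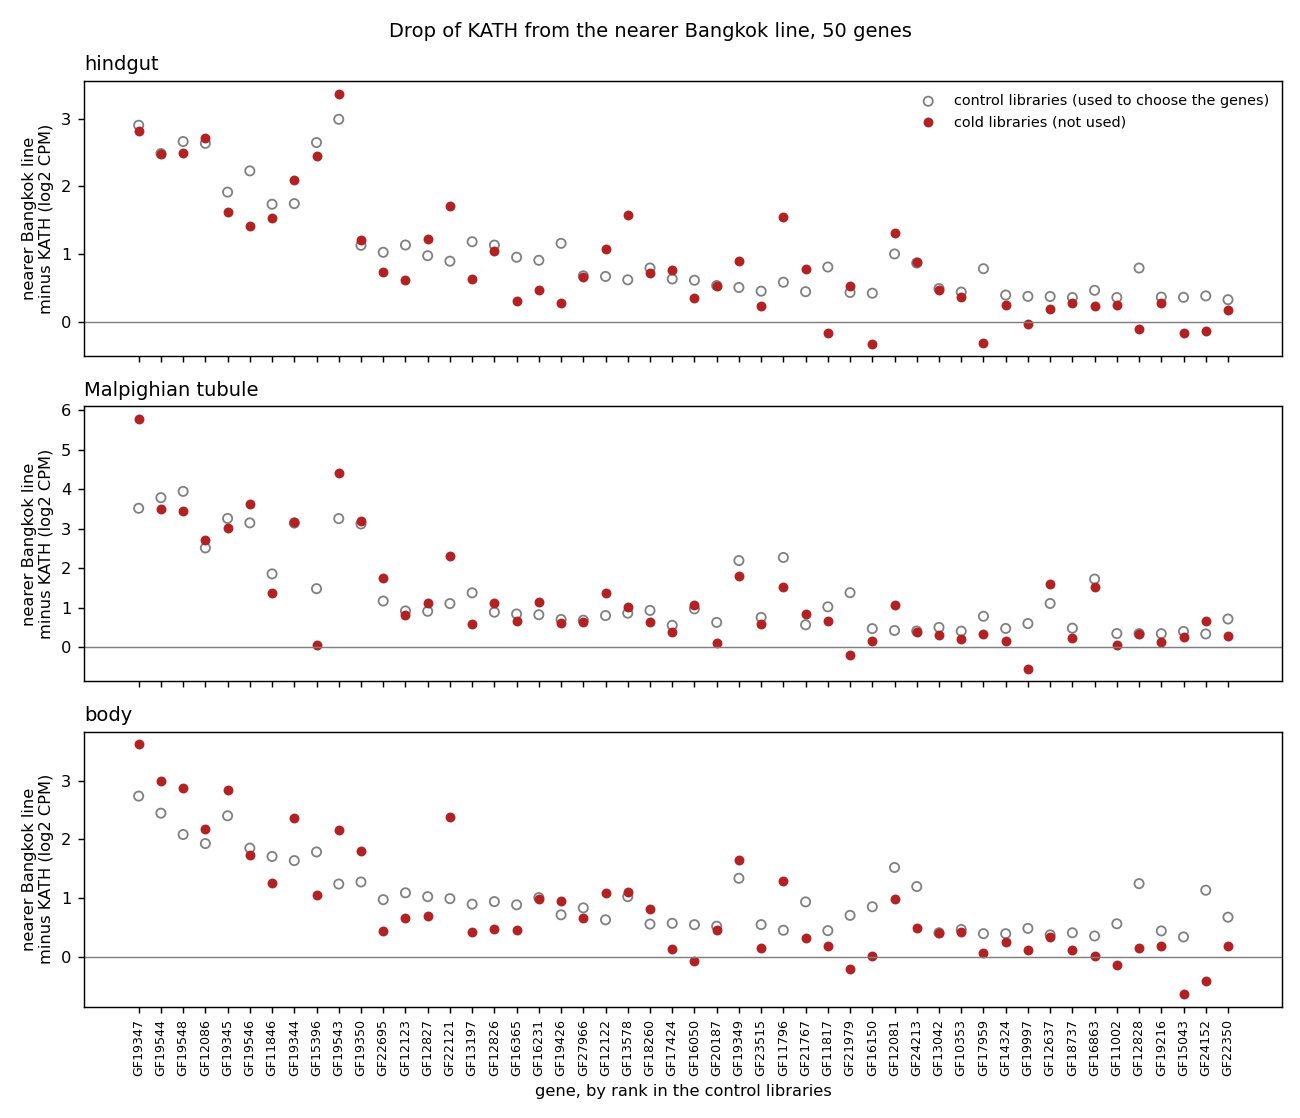
Each panel is 1 tissue; the x axis gives the 50 genes by rank and the y axis the nearer Bangkok line minus KATH in log2 CPM. Open circles are the control libraries that chose the genes and filled circles the cold libraries that did not; filled circles lie at or below 0 for 7 genes (hindgut), 2 genes (tubule) and 5 genes (body).

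Line differences in the cold were tested with edgeR over all genes of a tissue. The hindgut fit tested 10982 genes, the tubule fit 9744 and the body fit 13259, and all 50 genes were among them in each. In the hindgut 31 of the 50 were called lower in KATH than in FastBKK, where 5.02% of all tested genes were, and 30 were lower than in SlowBKK, where 7.46% were. In the tubule the counts were 31 against FastBKK (5.26% of all tested genes) and 34 against SlowBKK (6.36%). In the body they were 32 (11.3%) and 35 (12.8%). Not one of the 50 was called higher in KATH in the hindgut or the tubule, where edgeR called 3.26% and 6.01% of all tested hindgut genes, and 4.45% and 6.23% of all tested tubule genes, higher than FastBKK and than SlowBKK. A p that misses the threshold does not show that the levels were equal.

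Against both Bangkok lines at once, 24 genes were lower in KATH in the cold hindgut (2.06% of all tested genes, 1.74% of those that could enter), 27 in the cold tubule (2.24% and 2.28%) and 27 in the cold body (4.95% and 4%). In all 3 tissues 18 were, out of 43 such genes among the 9416 tested in every tissue (0.457%, and 0.557% of the genes that could enter). All 3 KATH libraries lay below all 6 Bangkok libraries for 34 hindgut (8.71% of all tested genes), 36 tubule (7.45%) and 34 body comparisons (16.1%), and for 24 genes in every tissue (1.41%). The tubule counts depended on single libraries: without KATH cold tubule replicate 1 they were 19 against FastBKK, 22 against SlowBKK and 15 against both, and without SlowBKK cold tubule replicate 2 the count against SlowBKK was also 22. Calls over all tested genes fell as well. Without KATH cold tubule replicate 1, 140 of 10272 genes were lower than FastBKK, in place of 513 of 9744. Against SlowBKK 270 were lower, in place of 620, and 286 of 10245 without SlowBKK cold tubule replicate 2. The count in all 3 tissues was then 12 without KATH cold tubule replicate 1. Scaling by column sums in place of TMM moved the balance over all genes in the body, from 1504 lower and 1597 higher against FastBKK to 2182 and 1182, and from 1693 and 1750 against SlowBKK to 2655 and 1090, and it raised the counts among the 50 to 37 and 39.

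The strongest differences came from a few genes with neighbouring symbols. The scaffold named scaffold_13335 held 10 of the 50 genes, or 20%, but only 2.0% of the genes that could enter, and 8 of the first 11 in rank. Of these 10, 9 formed 2 short runs of close symbols, in which a step of at most 3 symbol numbers was allowed between members. The first run was GF19344, GF19345, GF19347, GF19349 and GF19350, which are the only genes the table lists between the first and the last of these symbols, with lengths of 756 to 1226 bases. The second was GF19543, GF19544, GF19546 and GF19548, of 1101 to 1263 bases, between which lie GF19545 and GF19547. The order of symbols need not be the order on the scaffold, and no coordinates were used here: of 12349 pairs of consecutive symbols in the table, 85.7% were on 1 scaffold. The other 105 genes of the scaffold that could enter had a median ranking value of -0.18. GF19547 was 1 of these 105.

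Summed over its 5 genes, the first run gave 67.7, 100.7 and 98.8 CPM in the 3 cold tubule libraries of KATH. The FastBKK libraries gave 1165, 424 and 608 CPM and the SlowBKK libraries 1284, 1307 and 1614 CPM. All KATH libraries were thus far below every Bangkok library, while FastBKK libraries differed among themselves. In the cold hindgut the sums were 157, 198 and 161 CPM in KATH, 759.8, 429.8 and 549.5 CPM in FastBKK and 827, 737 and 1023 CPM in SlowBKK. In the cold body they were 183, 165 and 155 CPM in KATH, 801, 890.4 and 942 CPM in FastBKK and 844, 1102 and 821 CPM in SlowBKK. In neither tissue did a KATH library reach a Bangkok library, while the libraries of FastBKK and SlowBKK overlapped each other. KATH was closest to the Bangkok lines in the hindgut.

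The second run showed the same order of the lines. Its 4 genes summed to 41.7, 71.1 and 48.7 CPM in the cold tubules of KATH, to 1120, 342 and 581 CPM in those of FastBKK and to 1582, 1426 and 1762 CPM in those of SlowBKK. The cold hindgut sums were 154, 182 and 133 CPM in KATH against 984, 514 and 763 CPM in FastBKK and 979, 933 and 1191 CPM in SlowBKK. Again no KATH library reached a Bangkok library. For the cold body the KATH sums were 115, 122 and 113 CPM, the FastBKK sums 692, 781 and 686 CPM and the SlowBKK sums 908, 1229 and 899.9 CPM. Within FastBKK the cold tubule replicate 1 was the highest of the 3 for both runs. In the control body replicate 1 was the lowest for both, at 287 CPM against 698 and 699 CPM for the first run and 235 CPM against 501 and 551 CPM for the second. The runs differed in the cold body, where FastBKK replicate 4 was the highest for the first run, at 942 CPM, and the lowest for the second, at 686 CPM. The sums were a description, since single genes were tested.

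**Figure D2:**
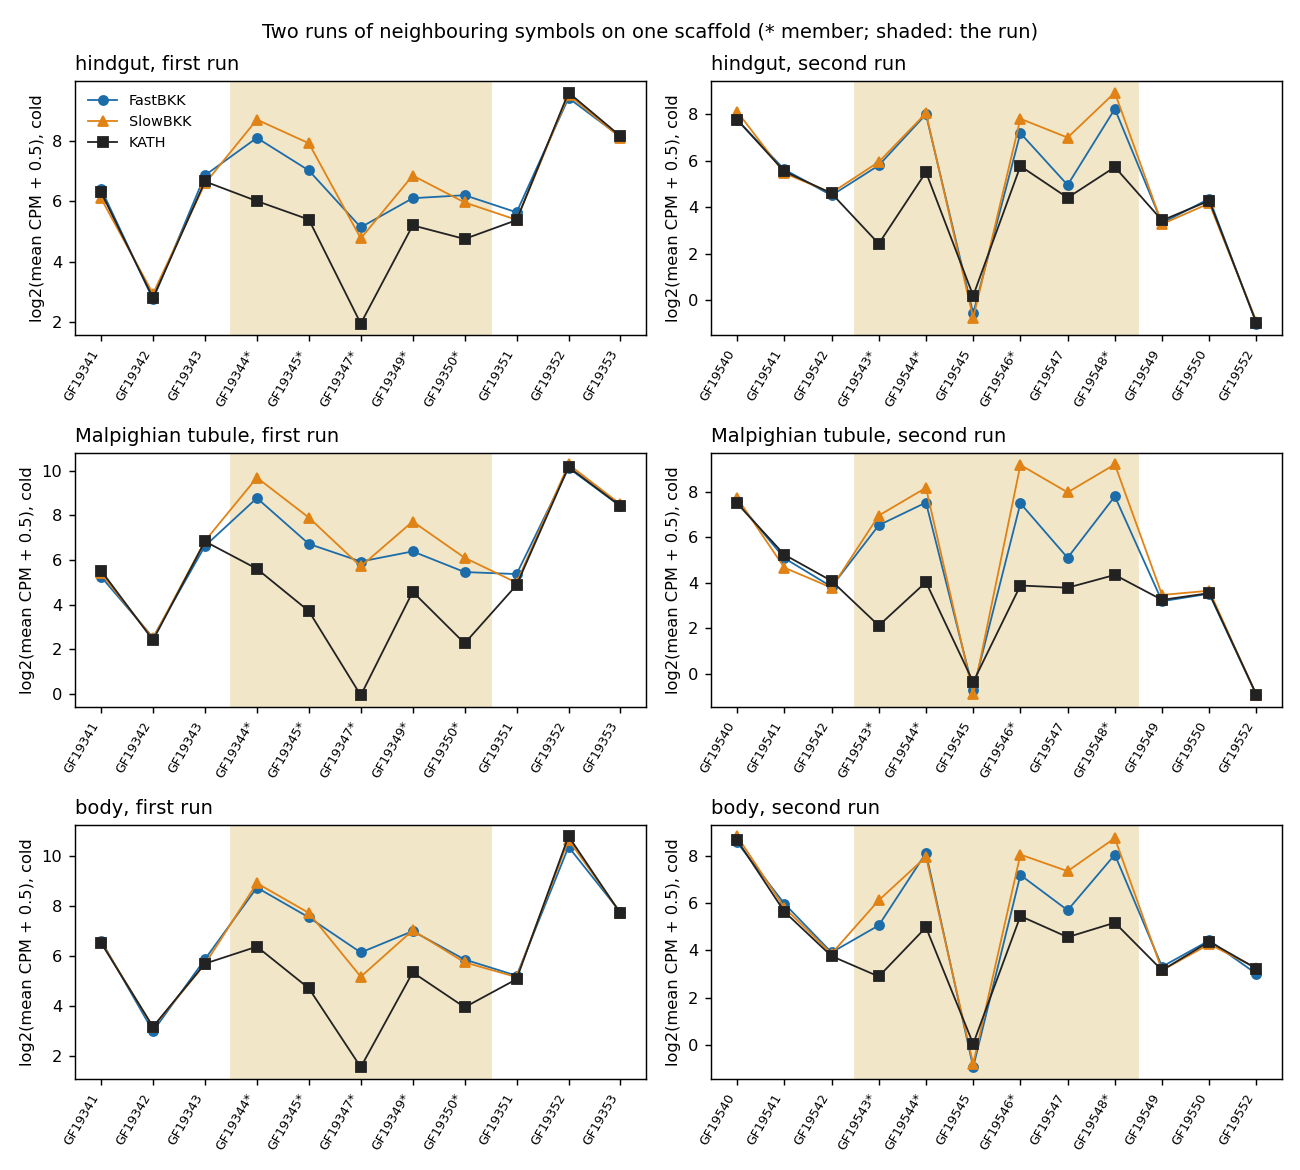
Each panel shows the 2 runs' genes (shaded) with 3 neighbouring symbols on each side, as log2(mean CPM + 0.5) of the 3 cold libraries of each line, for 1 run and 1 tissue; an asterisk marks the 50 genes. KATH lies below both Bangkok lines for the 9 genes with an asterisk. GF19545 inside the second run is near 0 CPM in all lines and highest in KATH. For the 12 neighbours the lower Bangkok mean minus KATH runs from -0.57 to 0.17, and negative values mean that KATH is higher.

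All 9 of these genes were called lower in KATH in all 6 cold comparisons with edgeR. The fitted log2 differences from FastBKK had hindgut, tubule and body medians of -2.05, -3.52 and -2.31, and from SlowBKK of -2.52, -4.20 and -2.92. The highest adjusted p among them was 0.0427 (hindgut), 0.0188 (tubule) and 0.00302 (body). As a percentage of the nearer Bangkok line, KATH means ran from 8.87% to 53.3% in the cold hindgut, with a median of 23.3%. In the tubule they ran from 0.872% to 28.1%, with a median of 8.9%, and in the body from 6.86% to 31.6%, with a median of 19.3%. Of the 18 hindgut calls 3 were lost on leaving out a single library, as were 2 of the 18 tubule calls and 0 of the 18 body calls. No sequences were used here, so whether the genes of a run are near-identical copies was not tested. If they are, the authors' counting could have divided reads among them. The values of single genes would then be less certain than their sums.

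Large differences were limited to the runs among the genes examined there. Over the 12 flanking genes, 3 on each side by symbol, the lower Bangkok mean minus KATH in the cold lay between -0.57 and 0.17 on the log2 scale. Of the 68 KATH tests of these genes 8 passed the threshold, some lower and some higher in KATH. Fitted log2 differences lay between -0.54 and 0.63 over all 68. Single KATH comparisons called 5.02% to 12.8% of all tested genes lower and 3.26% to 13.2% higher. GF19547, inside the second run but not among the 50, was lower in KATH than in SlowBKK by fitted log2 values of -2.58, -4.20 and -2.73 in the cold hindgut, tubule and body, with edgeR adjusted p-values of 0.000227, 0.000844 and 2.37e-06. Its differences from FastBKK were -0.51, -1.37 and -1.09, with adjusted p-values of 0.11, 0.039 and 0.000739. GF19545 (678 bases), the other gene inside the second run, had cold means under 1 CPM in every line and was highest in KATH. In the cold body KATH had 0.392, 0.769 and 0.434 CPM, while each Bangkok library held at most 3 counts of it, the floor, so no fold is given (edgeR adjusted p = 0.00181 against FastBKK and 0.00595 against SlowBKK). Its cold hindgut means were 0.646 ± 0.0291 CPM (SD, n = 3) in KATH, 0.176 ± 0.127 CPM in FastBKK and 0.0898 ± 0.104 CPM in SlowBKK, a difference called against SlowBKK (adjusted p = 0.0415) and not against FastBKK (0.13). It was not among the genes tested in the tubule.

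GF19347 (FBgn0096357, 756 bases, first run) stood first in rank. In the cold tubule KATH had 0.613, 0.401 and 0.349 CPM, FastBKK 125, 25.6 and 31.8 CPM and SlowBKK 51.4, 47.9 and 56.8 CPM. The KATH libraries were close to 0 and every Bangkok library was above 25 CPM. KATH was lower by a fitted log2 value of -7.10 ± 0.72 (SE) than FastBKK (edgeR adjusted p = 0.00177) and of -6.81 ± 0.71 than SlowBKK (adjusted p = 0.00171). In the cold body KATH had 1.96, 2.60 and 2.85 CPM, FastBKK 58.6, 67.4 and 86.8 CPM and SlowBKK 33.9, 41.8 and 32.2 CPM. Hindgut levels in the cold were 4.88, 4.08 and 1.22 CPM in KATH, with 67.1, 15.6 and 21.9 CPM in FastBKK and 28.9, 22.3 and 29.6 CPM in SlowBKK. No group overlapped with KATH in these tissues, and the hindgut gap was the smallest of the 3. The fitted values there were -3.32 ± 0.62 against FastBKK (adjusted p = 0.0143) and -2.96 against SlowBKK (adjusted p = 0.0164), and without KATH cold hindgut replicate 3 the first adjusted p was 0.05. The KATH counts behind these levels were 14 to 167 reads a library, above the floor of 3 counts.

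GF19344 (FBgn0096354, 1173 bases), the most abundant gene of the first run in KATH, had 34.8, 54.9 and 55.1 CPM in the cold tubules of KATH, 627, 264 and 427 CPM in those of FastBKK and 784, 751 and 956 CPM in those of SlowBKK. Its fitted log2 differences were -3.21 ± 0.32 and -4.05 ± 0.33, with edgeR adjusted p-values of 0.00176 and 0.000635. GF19345 (FBgn0096355, 1226 bases) had 9.04, 17.7 and 11.03 CPM in KATH, 209, 46.5 and 59.9 CPM in FastBKK and 225, 216 and 277 CPM in SlowBKK in the same tissue. For both genes SlowBKK lay above FastBKK in every library pair of the cold tubule, by fitted values that missed the threshold. The call of GF19345 against FastBKK was lost in the tubule without KATH cold tubule replicate 1 (adjusted p = 0.0734) and in the hindgut without KATH cold hindgut replicate 1 (0.0746) or replicate 4 (0.0577).

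GF19349 and GF19350 closed the first run. GF19350 had 3.85, 4.72 and 4.35 CPM in the cold tubules of KATH, 65.3, 23.4 and 42.0 CPM in FastBKK and 51.6, 74.0 and 78.9 CPM in SlowBKK, with fitted values of -3.37 and -3.93. Its hindgut values were -1.42 and -1.19. GF19349, at rank 28 the last gene of the runs, had 35.4, 39.2 and 34.7 CPM in the cold hindgut of KATH, 84.5, 68.0 and 52.5 CPM in FastBKK and 100.2, 89.8 and 156 CPM in SlowBKK. All KATH libraries were the lower ones, but the fitted difference from FastBKK, -0.86 ± 0.22, was near the threshold in edgeR (adjusted p = 0.0427). It was lost on leaving out any of 6 of the 9 libraries, with the highest adjusted p of 0.125 without KATH cold hindgut replicate 1. Its tubule call against FastBKK was lost without KATH cold tubule replicate 1 (0.0899) or replicate 3.

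In the second run GF19544 (FBgn0096551, 1244 bases) had 10.9, 25.8 and 10.9 CPM in the cold tubules of KATH, 321, 87.6 and 146 CPM in FastBKK and 274, 271 and 325 CPM in SlowBKK. GF19548 (FBgn0096555, 1263 bases) had 34.8, 42.7 and 29.0 CPM in the cold body of KATH, 266, 301 and 225 CPM in FastBKK and 379, 541 and 371 CPM in SlowBKK. Neither gene showed any overlap between KATH and a Bangkok line. The fitted values of GF19544 in the tubule were -3.57 and -4.15, with edgeR adjusted p-values of 0.00753 and 0.00389, and those of GF19548 in the body were -2.83 ± 0.19 and -3.52, with 5.29e-06 and 1.14e-06. GF19543 had the largest hindgut gap of the 50, with 4.59, 5.48 and 4.61 CPM in KATH, 95.1, 25.5 and 45.0 CPM in FastBKK and 62.0, 49.9 and 71.8 CPM in SlowBKK, and fitted values of -3.45 ± 0.43 and -3.61 ± 0.44 (adjusted p = 0.00242 and 0.00168). GF19546 was the one of the 9 run genes among the 50 in which the Bangkok lines differed in every tissue. In the cold tubule it had 13.5, 10.9 and 18.5 CPM in KATH, 287, 111 and 144 CPM in FastBKK and 606, 513 and 629 CPM in SlowBKK.

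GF12086 (FBgn0089125, scaffold_13266, 1983 bases), at rank 4, was no part of a run. Its KATH libraries held 6.17 to 12.4 CPM over the 3 cold tissues, with the lowest values in the tubule. In the cold hindgut KATH had 9.73, 11.2 and 12.4 CPM, FastBKK 71.6, 89.4 and 92.2 CPM and SlowBKK 79.2, 74.1 and 72.9 CPM. KATH had 7.56, 6.52 and 6.17 CPM in the cold tubule, FastBKK 40.0, 52.1 and 48.2 CPM and SlowBKK 62.1, 49.5 and 44.3 CPM. The KATH libraries lay within a narrow range in both organs, and both Bangkok lines overlapped each other in the tubule. Body levels in the cold were 9.40, 9.90 and 11.7 CPM in KATH, FastBKK having 55.2, 54.1 and 56.2 CPM and SlowBKK 48.5, 53.5 and 43.5 CPM. KATH means were 14.7%, 14.4% and 21.3% of the nearer Bangkok line in the 3 tissues. The fitted log2 differences from FastBKK were -2.88 ± 0.13, -2.83 and -2.36, with edgeR adjusted p-values of 2.53e-05, 0.000164 and 9.62e-08, and those from SlowBKK were -2.73, -2.90 and -2.15, with 3.65e-05, 0.000191 and 3.36e-07.

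**Figure D3:**
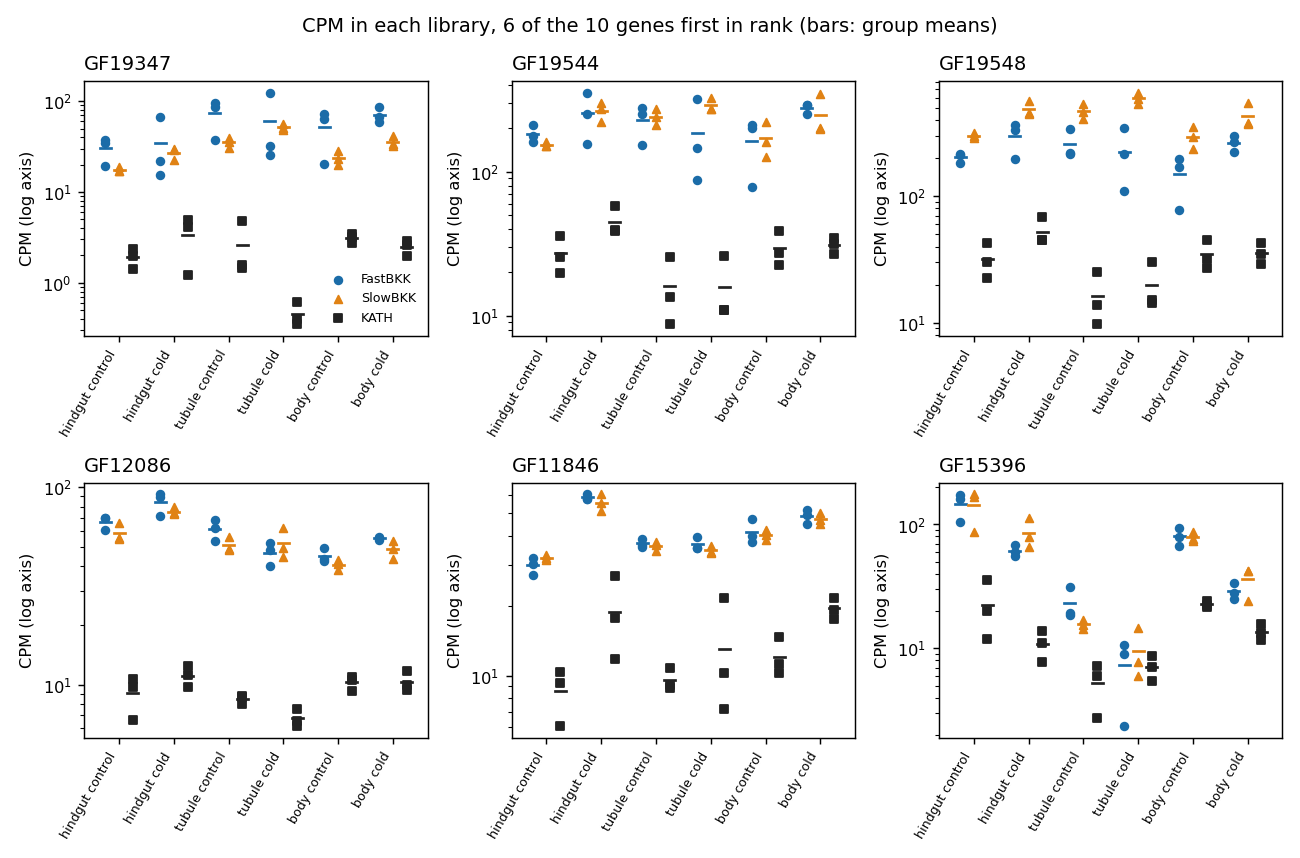
Every library of 6 genes, with CPM on a log axis, by line, tissue and treatment. GF19347, GF19544 and GF19548 belong to the runs, and GF12086, outside them, is lower in KATH in each tissue. In GF15396 the cold tubule libraries of the 3 lines overlap although the control tubule libraries do not.

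GF11846 (FBgn0088886, scaffold_13250, 1025 bases) was lower in KATH in each tissue with more spread between the KATH libraries. KATH had 17.7, 11.7 and 26.7 CPM in the cold hindgut, FastBKK 60.3, 57.8 and 57.3 CPM and SlowBKK 55.1, 50.9 and 60.3 CPM. The KATH libraries differed from each other by more than the 6 Bangkok libraries did. The fitted values were -1.60 against FastBKK and -1.53 against SlowBKK (edgeR adjusted p = 0.00617 and 0.00578). In the cold tubule, where KATH had 10.2, 7.18 and 21.5 CPM, they were -1.53 and -1.36 (adjusted p = 0.0289 and 0.0353), and they were lost on leaving out any of 7 and of 6 of the 9 libraries, at most to 0.119 and 0.124 without KATH cold tubule replicate 1.

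GF15396 (FBgn0092421, scaffold_12916, 1358 bases) kept the line difference in 2 tissues only. KATH had 7.72, 13.8 and 11 CPM in the cold hindgut, FastBKK 67.8, 60.3 and 55.3 CPM and SlowBKK 65.7, 113 and 79.1 CPM, and the fitted values were -2.45 and -2.95 (edgeR adjusted p = 0.00107 and 0.000353). In the cold body they were -1.03 and -1.32 (adjusted p = 0.00468 and 0.00102). KATH had 7.09, 5.44 and 8.69 CPM in the cold tubule, FastBKK 2.37, 10.8 and 9.03 CPM and SlowBKK 6.04, 7.82 and 14.5 CPM. There the 3 lines overlapped, and the fitted values were -0.10 and -0.36 (adjusted p = 0.926 and 0.695). The control tubule libraries, which chose the gene, had 2.75, 7.15 and 5.94 CPM in KATH, 19.4, 18.6 and 31.3 CPM in FastBKK and 17.1, 14.3 and 15.6 CPM in SlowBKK. The Bangkok levels were thus the ones that differed between control and cold tubules, by -1.58 in FastBKK and -0.70 in SlowBKK on the log2 scale, against 0.39 in KATH.

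Outside the runs, 9 further genes were called lower than both Bangkok lines in all 3 tissues. Besides GF12086 and GF11846 these were GF12827, GF22121, GF12826, GF16231, GF12122, GF11796 and GF12081. GF22121 (FBgn0099120, scaffold_12929, 1506 bases) had a larger gap in the cold than in the control libraries. In the cold body KATH had 28.0, 23.5 and 26.6 CPM, FastBKK 126, 135 and 169 CPM and SlowBKK 104, 136 and 170.1 CPM, with no overlap and fitted values of -2.40 and -2.31 (edgeR adjusted p = 7.31e-06 and 8.18e-06). Its nearer Bangkok line minus KATH was 0.90 in the control and 1.71 in the cold hindgut, 1.10 and 2.32 in the tubules, and 0.99 and 2.37 in the body. GF12081 (452 bases) gave fitted values of -0.92 to -1.31 over the 6 cold comparisons.

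GF12826, GF12827 and GF12828 are consecutive symbols on scaffold_13266, of 609, 1515 and 1931 bases, and differed in their calls. GF12827 was lower in KATH by fitted values of -1.26 and -1.23 in the cold hindgut, -1.24 and -1.10 in the cold tubule and -1.05 and -0.63 in the cold body, against FastBKK and SlowBKK respectively. For GF12826 the values were -1.07 and -1.14, -1.18 and -1.10, and -1.08 and -0.44. The tubule calls of both genes were lost without KATH cold tubule replicate 1, at edgeR adjusted p-values of 0.0594 to 0.0686, and those against SlowBKK also without SlowBKK cold tubule replicate 2. The body call of GF12826 against SlowBKK (adjusted p = 0.0168) was lost without KATH cold body replicate 3 (0.0608) or SlowBKK cold body replicate 1.

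GF12828 was the most abundant of the 50, with a mean of 5614 CPM over the Bangkok control groups, and it was called in none of the 6 cold comparisons of KATH. In the control tubule FastBKK had 15350, 13910 and 15480 CPM, SlowBKK 12990, 13510 and 14330 CPM and KATH 5123, 13990 and 13050 CPM. The control gap in the tubule thus rested on KATH control tubule replicate 1, in which GF12826 and GF12827 were also the lowest of the KATH libraries, at 4.31 CPM against 12.8 and 7.68 CPM and at 12.7 CPM against 36.0 and 23.5 CPM. In the cold tubule the level of GF12828 was 4043, 3045 and 6275 CPM in KATH, 5566, 8054 and 7402 CPM in FastBKK and 6384, 5630 and 4812 CPM in SlowBKK, with overlap.

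GF12122 and GF12123, also consecutive on scaffold_13266, differed in a similar way. GF12122 (848 bases) was lower in KATH by fitted values of -1.06 and -1.32 in the cold hindgut, -1.74 and -1.32 in the cold tubule and -1.09 and -1.02 in the cold body. Its tubule calls (edgeR adjusted p = 0.0133 and 0.0271) were lost on leaving out any of 3 and of 5 of the 9 libraries, at most to 0.0692 and 0.102 without KATH cold tubule replicate 1. GF12123 (1319 bases), the lowest of the 50 in the Bangkok control groups at a mean of 7.69 CPM, was called lower than FastBKK in each tissue (adjusted p = 0.0182, 0.0485 and 0.0106) and than SlowBKK in none (0.176, 0.215 and 0.128). Its calls against FastBKK were lost on leaving out any of 3 libraries in the hindgut and of 8 in the tubule, at most to 0.0735 and 0.143.

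GF14324 and GF16231 were the next most abundant genes after GF12828. GF14324 had a mean of 1085 CPM over the Bangkok control groups. In the cold hindgut it had 1099, 1113 and 1222 CPM in KATH, 1617, 1775 and 1863 CPM in FastBKK and 1295, 1264 and 1542 CPM in SlowBKK. Its KATH libraries were the lowest in every cold tissue, but only the differences from FastBKK in the hindgut (-0.57, edgeR adjusted p = 0.00897) and the body (-0.47, adjusted p = 0.000556) passed. GF16231, with a mean of 778 CPM, had 508, 450.4 and 368 CPM in the cold body of KATH, 924, 921 and 949 CPM in FastBKK and 877, 861 and 895 CPM in SlowBKK. It was lower than FastBKK by -0.90, -1.17 and -1.01 and than SlowBKK by -0.44, -1.43 and -0.90 in the hindgut, tubule and body. The hindgut difference from SlowBKK (adjusted p = 0.0281) was lost on leaving out any of 7 of the 9 libraries, at most to 0.0891 without SlowBKK cold hindgut replicate 4.

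The other genes were called in fewer of the 6 cold comparisons. Single comparisons called 5.02% to 12.8% of all tested genes lower in KATH. How many of all tested genes reached each number of calls was not counted. GF13197, GF27966, GF13578 and GF10353 were called lower in KATH in 5. GF15396, GF22695, GF19426, GF17424, GF13042 and GF16863 were called in 4. The 7 genes called in 3 were GF12123, GF16365, GF20187, GF21767, GF11817, GF24213 and GF12637, and another 7 were called in 2: GF18260, GF16050, GF21979, GF16150, GF14324, GF19216 and GF24152. GF23515, GF17959, GF19997, GF18737, GF11002 and GF15043 were called in 1, and GF12828 and GF22350 in none. Genes outside the runs had 142 KATH calls when those in the higher direction, of GF15043 and GF24152 in the body, are included. Of these 142, 46 were lost on leaving out at least 1 single library, 16 of 43 in the hindgut, 24 of 47 in the tubule and 6 of 52 in the body.

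Among these, GF22695 (1018 bases), 12th in rank, had 10.9, 8.70 and 11.2 CPM in the cold tubules of KATH, 30.9, 64.2 and 70.8 CPM in FastBKK and 29.1, 43.7 and 34.1 CPM in SlowBKK. Its fitted tubule values were -2.47 and -1.75 (edgeR adjusted p = 0.00403 and 0.00989), whereas in the cold body, where KATH had 138, 135 and 146 CPM and SlowBKK 150, 189 and 227 CPM, the difference from SlowBKK was -0.35 (adjusted p = 0.058). GF17424 showed how a gene of very unequal tissue levels could enter the list. It had 310.3 to 339.5 CPM in the cold tubules of KATH against 417 to 516 CPM in the Bangkok lines, but 6.17 to 6.99 CPM against 8.27 to 17.0 CPM in the cold hindgut. Its calls were against SlowBKK in each tissue and against FastBKK in the tubule (-0.42, adjusted p = 0.0257). The hindgut call and that against FastBKK were each lost on leaving out any of 6 libraries, at most to 0.0976 without KATH cold hindgut replicate 1 and 0.104 without FastBKK cold tubule replicate 4. GF16365 was lower than SlowBKK in each tissue, by -0.95, -1.05 and -1.13, and was called against FastBKK in none, with values of -0.26, -0.70 and -0.40. Its hindgut call was lost without KATH cold hindgut replicate 3 (0.0519) and its tubule call on leaving out any of 5 libraries, at most to 0.113 without SlowBKK cold tubule replicate 2.

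Some of the genes differed strongly between cold and control flies. These contrasts contain the control libraries that chose the genes, so they are given without a test. GF11796 (1608 bases) had the largest mean rise with cold in the Bangkok lines, 1.60 on the log2 scale. In the cold hindgut SlowBKK had 92.6, 95.6 and 100.3 CPM, FastBKK 53.5, 38.1 and 32.7 CPM and KATH 16.0, 14.3 and 11.4 CPM. In the control hindgut the values were 12.2, 9.75 and 14.0 CPM, 12.7, 16.1 and 10.4 CPM, and 8.79, 7.02 and 7.53 CPM. The Bangkok lines overlapped in the control hindgut and all 3 lines stood apart in the cold. In the cold hindgut, tubule and body KATH was below FastBKK by fitted values of -1.54, -1.59 and -1.28, with edgeR adjusted p-values of 0.0019, 0.00317 and 9.03e-05. It was below SlowBKK by -2.76, -3.46 and -2.06, with 0.000227, 0.000191 and 3.66e-06. FastBKK was itself below SlowBKK by -1.23, -1.87 and -0.78, with 0.00612, 0.00373 and 0.00189.

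GF13578 followed with a mean Bangkok rise of 1.47. KATH had 38.6, 35.6 and 25.3 CPM in the cold hindgut, FastBKK 104, 114 and 101 CPM and SlowBKK 92.9, 108 and 100.4 CPM, with no overlap between KATH and the others. The fitted values were -1.64 and -1.57 (edgeR adjusted p = 0.000645 and 0.000502). In the tubule the difference from SlowBKK was -1.99 (adjusted p = 0.0108; 0.0528 without KATH cold tubule replicate 1) and that from FastBKK was -1.04 (adjusted p = 0.0976). GF22121, described above, had the third highest mean rise, 0.99.

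**Figure D4:**
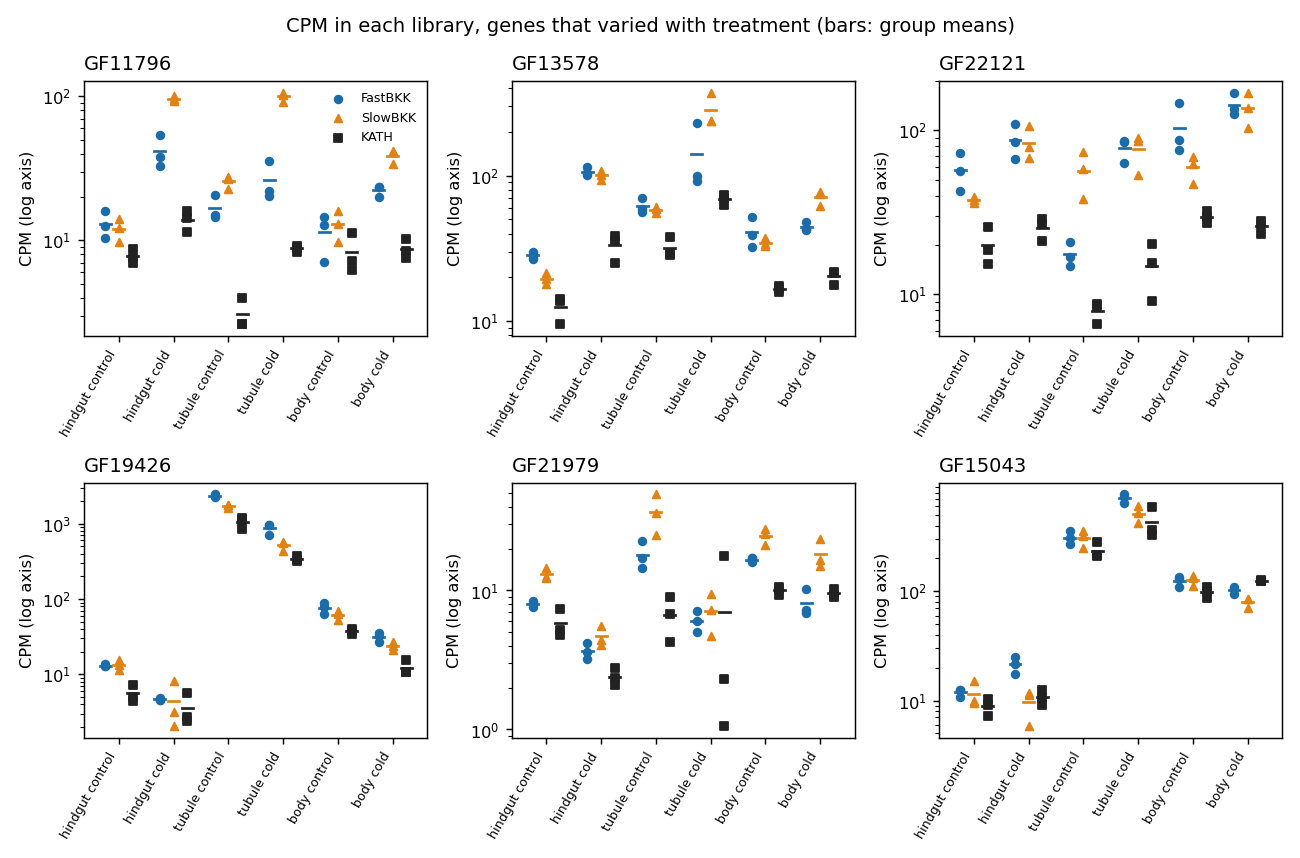
Every library of 6 genes whose levels differ between treatments or whose KATH difference is absent in the cold, with CPM on a log axis. GF11796 and GF13578 are higher and GF19426 is lower in most cold groups, and in the cold body GF15043 is higher in KATH than in both Bangkok lines.

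GF19426 (2143 bases), the 10th gene of scaffold_13335 and outside both runs, had the largest mean fall with cold, -1.44. In the control tubule FastBKK had 2250, 2349 and 2458 CPM, SlowBKK 1601, 1774 and 1791 CPM and KATH 1201, 1127 and 843 CPM. In the cold tubule the values were 708, 957 and 968 CPM, 550.3, 440.2 and 573 CPM, and 316, 372 and 329 CPM. The lines kept 1 order at both temperatures while all levels were lower in the cold. KATH was lower than FastBKK by -1.41 (edgeR adjusted p = 0.00247) and than SlowBKK by -0.58 (adjusted p = 0.0471), the latter lost on leaving out any of 8 of the 9 libraries, at most to 0.153 without KATH cold tubule replicate 1. In the cold body it was lower by -1.31 and -0.89 (adjusted p = 0.000199 and 0.00195), and in the cold hindgut neither comparison passed (0.751 and 0.749). GF21979 had a mean cold minus control difference of -1.27 in the Bangkok lines, and had 2.30, 1.06 and 17.7 CPM in the cold tubules of KATH, where the third value, replicate 4, stood apart from the others and above all Bangkok libraries.

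Over the 50 genes the median cold minus control difference was near that of the genes that could enter. In the hindgut it was 0.23 in FastBKK, 0.23 in SlowBKK and 0.34 in KATH, beside 0.27, 0.30 and 0.29. Tubule medians were -0.05, 0.10 and 0.07 beside 0.14, 0.25 and 0.18, and body medians -0.01, 0.00 and 0.06 beside 0.14, 0.12 and 0.07. In KATH, 78%, 58% and 64% of the 50 had a higher mean in the cold in the hindgut, tubule and body, beside 72%, 62.2% and 58.7% of the genes that could enter. For FastBKK the shares were 64%, 46% and 50% beside 71.3%, 62.1% and 66.2%, and for SlowBKK 60%, 54% and 48% beside 70.7%, 67.3% and 65.3%. The control libraries that chose the genes enter these shares, which are read no further.

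Other genes of the list were not lower in KATH in some cold tissue. GF15043 (rank 48) was higher in the cold body, with 124, 126 and 125 CPM in KATH, 104, 109 and 94.0 CPM in FastBKK and 85.4, 84.1 and 70.9 CPM in SlowBKK. Every KATH library exceeded every Bangkok library, by fitted values of 0.35 (edgeR adjusted p = 0.0114) and 0.72 (adjusted p = 0.000178). In the control body the order had been the opposite, with 101, 109 and 86.4 CPM in KATH, 135, 130.4 and 109 CPM in FastBKK and 112, 139 and 133 CPM in SlowBKK. GF24152 (rank 49, 4462 bases) was higher in KATH than in SlowBKK in the cold body by 0.50 (adjusted p = 0.00283), with 31.5, 33.3 and 34.3 CPM against 24.9, 23.8 and 25.3 CPM, and overlapped with FastBKK. These were the only 2 of the 50 called higher in KATH in any cold comparison, in a tissue where 12% of all tested genes were called higher than FastBKK and 13.2% higher than SlowBKK. In the tubule GF24152 was lower in KATH, by -0.80 and -0.63 (adjusted p = 0.00723 and 0.0124), and the second was lost on leaving out any of 4 libraries, at most to 0.0567 without KATH cold tubule replicate 1.

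GF19997 had 24.2, 36.7 and 27.5 CPM in the cold tubules of KATH, 18.4, 22.2 and 19.3 CPM in FastBKK and 29.3, 28.7 and 30.9 CPM in SlowBKK, so that KATH overlapped with SlowBKK and lay above FastBKK by a fitted 0.53 that missed the threshold (edgeR adjusted p = 0.0703). Its 1 call was against SlowBKK in the body (-0.60, adjusted p = 0.000243). GF16150 and GF17959 had cold hindgut means in KATH above the lower Bangkok mean by log2 values of 0.31 and 0.30, without a call. GF16150 was lower than FastBKK in the tubule (-0.83, adjusted p = 0.0034) and the body (-0.60, adjusted p = 0.00128). The 1 call of GF17959, against SlowBKK in the tubule (-2.58, adjusted p = 0.0429), rested on SlowBKK libraries of 21.8, 177 and 137 CPM and was lost on leaving out any of 7 libraries, at most to 0.133 without SlowBKK cold tubule replicate 3. GF11002 (428 bases, the shortest of the list), GF18737 and GF19216 had 1, 1 and 2 calls with sizes of -0.54, -1.06, and -0.46 and -0.32, of which only the last was kept on leaving out each library. The highest adjusted p was 0.0609 without SlowBKK cold hindgut replicate 1 for GF11002, 0.0952 without KATH cold hindgut replicate 1 for GF18737 and 0.0543 without KATH cold tubule replicate 3 for the tubule call of GF19216. GF22350 was lower in KATH in each mean but had no call, with adjusted p-values of 0.0589 to 0.47. Of the genes just outside the list, GF20930 was called lower than FastBKK in each tissue and than SlowBKK in none, and GF14412 was called in none.

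The 2 Bangkok lines, which differ in phenotype within 1 population, were also compared for these genes in the cold. In the hindgut 3 genes were lower in FastBKK than in SlowBKK (3.95% of all tested genes were) and 7 were higher (5.74%). In the tubule 3 were lower (3.75%) and 3 higher (4.15%), and in the body 12 lower (10%) and 11 higher (10.5%). The shares of the 50 were 6% and 14%, 6% and 6%, and 24% and 22%. In at least 1 tissue 28 of the 50 differed between the Bangkok lines (30.4% of the 9416 genes tested in every tissue did), 13 with SlowBKK higher (14.3%) and 15 with FastBKK higher (16.8%). GF19546 and GF11796 were higher in SlowBKK in every tissue. For GF19546 the fitted FastBKK minus SlowBKK values were -0.63, -1.62 and -0.84 (edgeR adjusted p = 0.0392, 0.0286 and 0.000213), of which the hindgut and tubule calls were each lost on leaving out any of 6 libraries, at most to 0.136 and 0.103 without FastBKK cold hindgut replicate 4 and FastBKK cold tubule replicate 4.

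GF10353 (816 bases) was the gene in which FastBKK was higher than SlowBKK in every tissue. FastBKK had 31.3, 34.3 and 39.3 CPM in the cold hindgut, SlowBKK 22.1, 21.4 and 21.4 CPM and KATH 17.5, 16.9 and 15.5 CPM. The 3 lines formed separate steps. FastBKK exceeded SlowBKK by 0.68, 0.63 and 0.45 in the hindgut, tubule and body (edgeR adjusted p = 0.00612, 0.00669 and 0.00384). The Bangkok counts were the least stable: in place of 10 hindgut calls there were 2 without FastBKK cold hindgut replicate 4, 3 without FastBKK cold hindgut replicate 3, 4 without SlowBKK cold hindgut replicate 1, and 6 without KATH cold hindgut replicate 3 or SlowBKK cold hindgut replicate 2. The 6 tubule calls became 13 without FastBKK cold tubule replicate 1. Calls over all tested genes moved in the same fits. Without FastBKK cold hindgut replicate 4, 115 hindgut genes were lower and 247 higher in FastBKK, in place of 434 and 630. Without FastBKK cold tubule replicate 1, 662 tubule genes were lower and 632 higher, in place of 365 and 404. Column-sum scaling moved the tubule balance over all genes from 365 lower and 404 higher in FastBKK to 538 and 285.

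Whether the KATH gap differed between the 2 organs was tested in 1 edgeR fit of the 18 cold hindgut and tubule libraries, as the difference between KATH and the mean of the Bangkok lines in the tubule minus that in the hindgut. This test was added after the data had been seen. It took the 18 libraries as independent. The labels do not say whether hindgut and tubule samples of equal replicate number came from the same flies, and this was not checked. The gap was more negative in the tubule for 5 of the 50 genes, where 1.04% of the 11397 tested genes were, and less negative for 1, where 1.82% were. The 5 were GF19347, GF19546, GF19350, GF16863 and GF12637, and the 1 was GF15396. For GF19546 the gap was -1.69 in the hindgut and -4.44 in the tubule, and for GF19350 it was -1.30 and -3.61. GF16863 had 52, 44.4 and 72.1 CPM in the cold tubules of KATH, 168, 162 and 159 CPM in FastBKK and 263, 254 and 211 CPM in SlowBKK, but 18.9, 17.3 and 18.8 CPM, 19.7, 22.4 and 23.0 CPM, and 26.6, 30.1 and 29.4 CPM in the cold hindgut. The tubule libraries were far apart and the hindgut libraries of KATH and FastBKK nearly met. GF12637 had 6.24, 4.01 and 7.85 CPM in the cold tubules of KATH, 20.9, 26.2 and 26.2 CPM in FastBKK and 23.6, 14.5 and 19.5 CPM in SlowBKK, whereas in the cold hindgut KATH, at 15.5, 13.9 and 19.1 CPM, overlapped with SlowBKK at 16.7, 22.1 and 16.8 CPM.

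The list had some properties that the rule did not use. Its 50 genes lay on 13 scaffolds, with 13 on scaffold_13266 and 9 on scaffold_13340, which is 26% and 18% of them against 20.1% and 19.8% of the genes that could enter. There were 14 genes with another of the 50 within 3 symbols on the same scaffold: the 9 genes of the runs, GF12826 to GF12828, and GF12122 with GF12123. Genes of the list were shorter, with a median length of 1356 bases beside 1968 bases for the genes that could enter. When the rule was applied to the cold libraries instead, 6056 genes could enter and 22 of the first 50 were among the 50 described here, as were 8 of the first 11 among the first 11. A gap over 1 on the log2 scale in all 3 cold tissues was found for 15 of the 5747 genes that could enter, and 14 of these were in the list.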

How the data were processed

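The authors deposited 1 table of raw counts per gene, as whole numbers, with FlyBase identifier, symbol, scaffold and gene length, per the file headers. All 54 library columns matched a label. FastQC 0.11.9 is named in the submitters' processing notes. The genome build, aligner, counter, annotation version and use of strand are not given in the sources used here. Libraries held 30.7 to 48.8 M counts. No molecular identifiers were used on the reads as far as the labels say, so the floor of 3 counts covers counting error only.

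Levels are CPM of column sums. Each tissue's 9 cold libraries were fitted with edgeR 4.0.16 in R 4.3.3 (filterByExpr, TMM, quasi-likelihood F test, two-sided, Benjamini-Hochberg adjustment over all tested genes, 1 coefficient per line). The threshold for a call was an adjusted p under 0.05. The SE is the absolute log2 value divided by the square root of F. A gene was called lower than both Bangkok lines where both comparisons passed. The code was tested on simulated counts with 200 changed genes.

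The genes, lists and tests were chosen with earlier results of these data known. Genes are named for the first 10 ranks, the edge of the rule, the extreme cold gaps per tissue, the smallest cold gaps, the extreme levels, the extreme treatment and Bangkok differences, and neighbouring symbols. GF22121, GF12081, GF19547, GF16863, GF12637, GF10353, GF22695, GF17424 and GF16365, and the genes listed by their number of calls, were named after their values had been seen where these rules did not name them. Same-numbered replicates of different lines correlated by -0.268 to 0.463 in their deviations, and replicates of unlike number by -0.398 to 0.436. These overlapping ranges cannot show whether equal numbers are pairs, and the labels do not say. The main fits did not take them as pairs. Alternatives were all 18 libraries of a tissue, a replicate block, DESeq2 1.42.0, RLE scaling, no filter, a fold change over 2, leaving out each library, and, added after the data were seen, column-sum scaling.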

Additional observations from a re-analysis of the deposited data

Results flagged for a closer look

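For 6 genes the gap between KATH and the mean of the Bangkok lines differed between the cold tubule and the cold hindgut in the test of that difference with edgeR. Tubule minus hindgut was -3.77 ± 0.88 (SE, log2) for GF19347 (adjusted p = 0.0349), whose gap was -3.13 in the hindgut and -6.91 in the tubule. It was -2.75 ± 0.36 for GF19546 (edgeR adjusted p = 0.000941) and -2.31 ± 0.34 for GF19350 (edgeR adjusted p = 0.002). Both genes belong to the runs of neighbouring symbols on scaffold_13335. GF16863 had -1.37 ± 0.20 (adjusted p = 0.002), from a gap of -0.40 in the hindgut and -1.77 in the tubule, and GF12637 had -1.26 ± 0.30 (adjusted p = 0.0374), from -0.52 and -1.78. GF15396 went the other way with 2.52 ± 0.55 (adjusted p = 0.0242), from -2.69 and -0.18.

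The calls of GF19546, GF19350 and GF16863 were kept on leaving out each of the 18 libraries. That of GF19347 was lost in 12 of these fits, at most to an adjusted p of 0.102 without KATH cold hindgut replicate 1, and that of GF12637 in 13, at most to 0.115 without KATH cold hindgut replicate 4. That of GF15396 was lost without KATH cold hindgut replicate 1 (0.0826) or replicate 4 (0.063). The 283 genes present in the hindgut and nearly absent from the tubule reached 1.4% of their hindgut level in KATH cold tubule replicate 4 and 0.775% in FastBKK cold tubule replicate 1. Without the first of these libraries the call of GF19347 was lost (adjusted p = 0.0756), those of the other 5 genes were kept and GF16231 was called with -0.73 (adjusted p = 0.0451). Without the second all 6 calls were kept.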

How the results depend on the processing

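None of the 196 KATH calls or of the 39 calls between the Bangkok lines turned its direction in any alternative. Of the KATH calls, 0 were lost with DESeq2, 4 with RLE scaling, 4 with all 18 libraries of a tissue in 1 fit, 9 with no filter and 63 with a fold change over 2 required in addition. With the replicate block 48 were lost, and the labels do not say whether equal replicate numbers belong together. With the replicate block the tubule counts were 12 against SlowBKK (34 without) and 10 against both lines (27), the Bangkok counts were 5 in the hindgut (10) and 2 in the tubule (6), and 8 genes were lower in all 3 tissues (18). The fold requirement left 17 genes against SlowBKK in the body (35), 16 against both (27), and 3, 3 and 2 between the Bangkok lines (10, 6 and 23). DESeq2 gave 21 and 13 Bangkok calls in the hindgut and tubule, and the 18-library fit gave 10 in the tubule. Leaving out each library gave 21 to 31 against FastBKK in the hindgut, 23 to 31 against SlowBKK and 17 to 23 against both. In the tubule it gave 19 to 33, 22 to 36 and 15 to 29, in the body 29 to 34, 33 to 37 and 23 to 28, and in all 3 tissues 12 to 18. Between the Bangkok lines it gave 2 to 14, 4 to 13 and 19 to 25 in the hindgut, tubule and body. The organ counts of 5 and 1 became 3 to 6 and 0 to 1. Of the 18 genes lower in every tissue, 7 were kept in every alternative but the fold requirement. As the rule's own alternatives, a pseudocount of 0.1 or 2 kept 49 of the 50 genes and TMM-scaled CPM kept 45. The causes of these shifts were not tested. Groups of 3 libraries limit the small differences of ranks 12 to 50.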
